A study of Homo sapiens with 6 samples.

Results

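The kallikrein-related peptidases KLK5 to KLK14 are 10 neighbouring genes of the kallikrein cluster on chromosome 19, and their expression was described in HCT116 cells with and without LSD1. They were picked by symbol, and the family was chosen from the WT against LSD1 KO contrast of these same libraries. The differences between WT and LSD1 KO cells are therefore given for them as a description. Calls of the members in fits across all genes are also given, and nothing is read from those calls. All 10 genes were found among the 60240 genes listed. A count was present in at least 1 library for 9 of them, and 5 had enough counts to enter the fit across 17672 genes. HCT116 is a human colorectal carcinoma cell line, and polyA RNA was sequenced from 3 WT libraries and 3 LSD1 KO libraries of it. LSD1, encoded by KDM1A, is a demethylase that removes methyl groups from lysine 4 of histone H3, and the study asked how gene expression differs once it is lost. LSD1 KO cells were made with CRISPR/Cas9 and a guide to exon 1 of the gene, followed by a short puromycin selection and the expansion of individual clones. WT cells carried the wild-type genotype, and no drug or time course was part of the comparison. The study's methods speak of biological replicates for its experiments in general. The sources used here do not say for these libraries how many clones the 3 LSD1 KO libraries came from, nor which libraries came from separate cultures, so the p-values measure only the spread between these libraries, which may be technical.

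Kallikrein-related peptidases are secreted serine proteases that are made as inactive zymogens and switched on when a short propeptide is cut off. In skin they form a cascade in which trypsin-like members activate one another and chymotrypsin-like members cut the proteins that hold the outer cells together, while inhibitors of the SPINK family hold the cascade back. In epithelial tumours, colorectal carcinoma among them, several members are made outside their usual tissues.

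Gene positions are given on GRCh38.p14 from RefSeq. All 10 genes were on the minus strand. In the order of their coordinates, KLK5 lay at chr19:50943303-50953038, KLK6 at chr19:50958631-50969591, KLK7 at chr19:50976468-50984064, KLK8 at chr19:50996008-51001604 and KLK9 at chr19:51002508-51009592. They were followed by KLK10 at chr19:51012739-51020097, KLK11 at chr19:51022236-51027991, KLK12 at chr19:51029094-51035002, KLK13 at chr19:51055626-51065679 and KLK14 at chr19:51077494-51084210.

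To show the sequence next to which these transcripts start, promoter windows of 300 bases (250 bases before to 50 bases after an annotated start) were taken from RefSeq for 9 of the 10 genes, 16 windows in all. KLK8 was not among the genes with a window. Shown here are stretches from windows of KLK6, KLK10, KLK7 and KLK13. KLK6, KLK10 and KLK7 had the largest ratios between LSD1 KO and WT cells among the 5 members with enough counts to be tested. KLK13 was the one of these 5 whose level was lower on average in LSD1 KO cells. Each stretch is the longest part before the start that shared no 31 bases in a row with a GENCODE transcript of its gene. Exons of other genes were not checked. The stretches of KLK10 and KLK13 lie inside the RefSeq spans of their genes, before an annotated start within them. The sequences run 5′ to 3′ on the minus strand of GRCh38.p14, at chr19:50969674-50969841 for KLK6, chr19:50984100-50984314 for KLK7, chr19:51019710-51019819 for KLK10 and chr19:51065093-51065342 for KLK13. Capitals mark GGGCGG on either strand, the GC box.
KLK6: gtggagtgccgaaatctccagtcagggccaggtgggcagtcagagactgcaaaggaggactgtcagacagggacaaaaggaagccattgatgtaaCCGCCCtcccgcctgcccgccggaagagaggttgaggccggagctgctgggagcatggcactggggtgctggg
KLK7: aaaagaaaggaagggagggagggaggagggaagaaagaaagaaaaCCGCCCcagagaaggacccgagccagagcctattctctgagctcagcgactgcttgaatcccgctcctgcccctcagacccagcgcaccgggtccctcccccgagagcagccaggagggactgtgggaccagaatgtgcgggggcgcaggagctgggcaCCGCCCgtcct
KLK10: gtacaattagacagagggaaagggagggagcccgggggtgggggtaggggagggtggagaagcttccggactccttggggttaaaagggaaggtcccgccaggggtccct
KLK13: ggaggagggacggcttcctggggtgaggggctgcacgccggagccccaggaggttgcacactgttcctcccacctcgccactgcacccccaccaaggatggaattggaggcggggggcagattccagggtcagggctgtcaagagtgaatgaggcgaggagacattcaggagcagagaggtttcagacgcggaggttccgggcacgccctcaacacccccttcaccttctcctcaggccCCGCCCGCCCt
The stretch of KLK6 holds 1 GC box, that of KLK7 holds 2, and that of KLK13 ends in 2 that overlap. The stretch of KLK10 holds none.

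Across all 16 windows, both strands were searched for 4 short motifs. The GC box was found in 10 of 16 windows and in 6 of 9 genes (KLK6, KLK7, KLK9, KLK11, KLK13 and KLK14), compared with 45.0% of all 35116 promoter windows. The E-box, CANNTG, where N is any base, was found in 12 windows and 7 genes (KLK6, KLK7, KLK9, KLK11, KLK12, KLK13 and KLK14), compared with 68.7% of all windows. The TATA box, searched as TATAAA, was found in none of the 16 windows, compared with 11.5% of all windows. The AP-1 site, searched as TGANTCA, was found in none of them either, compared with 7.71% of all windows. Both windows of KLK10 and the window of KLK5 held none of the 4 motifs, which says only that these letters are not in these windows. The windows of 1 gene overlap in part and are not independent. The GC content of the KLK6 window was 66.3% and that of the KLK7 windows ranged from 61.3% to 65.0%. The windows of KLK10 were at 59.0% and 63.7%, that of KLK5 at 64.7% and that of KLK9 at 61.7%. Those of KLK11 were at 59.3% and 69.3%, and those of KLK13 at 66.7% and 70.7%. The window of KLK12 was at 55.3% and those of KLK14 at 54.3% to 54.7%. The median over all windows was 58.7%.

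The transcript level of KDM1A and markers of the cells were looked at first. The study itself checked the loss of LSD1 by Sanger sequencing and immunoblotting. KDM1A was at 230.8, 224.1 and 213.5 CPM (counts scaled to library size with TMM factors) in WT libraries 1 to 3 and at 29.9, 27.6 and 27.8 CPM in LSD1 KO libraries 1 to 3, a log2 fold change of -2.97 ± 0.154 (SE; edgeR's quasi-likelihood test, q value = 0.000451). The libraries held 25379279 to 29186963 counts, so a floor of 3 counts corresponded to 0.0993 to 0.113 CPM, which covers counting error only. KDM1A was the only gene of 17672 with a q value under 0.1 in the fit without a block (0.00566%). With the replicate number as a block, 282 genes were called (1.6%), 185 of them higher (1.05%) and 97 lower (0.549%) in LSD1 KO cells. The median log2 fold change of all genes tested was 0.000822. Of the 8 colon epithelium markers, 7 were tested, and their summed level was 2041 to 3816 CPM in WT and 2418 to 3157 CPM in LSD1 KO libraries, while KRT20 was at 1 to 16 counts and VIL1 at 2 to 8 counts in every library. CD3E had 0 counts in every library and PTPRC at most 3.

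The transcripts of the family came almost entirely from 4 genes. KLK6, KLK7, KLK8 and KLK10 held between 96.6% and 99.0% of the counts of the 10 members in each library. The summed level of the 10 members was 29.1, 46.2 and 36.5 CPM in WT libraries 1, 2 and 3 and 93.5, 68.2 and 85.0 CPM in LSD1 KO libraries 1, 2 and 3. All 3 LSD1 KO libraries were above all 3 WT libraries, and the replicate 2 libraries were the nearest to each other. The mean was 37.3 ± 8.57 CPM in WT cells and 82.2 ± 12.9 CPM in LSD1 KO cells (SD, n = 3), a ratio of 2.21, or 2.72 without the replicate 2 libraries, an alternative chosen after seeing the data. More cells that express a kallikrein and more of its RNA per cell cannot be told apart in bulk libraries.

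Each of the 4 genes was higher in every LSD1 KO library than in every WT library, a separation that 742 of the 17672 genes tested (4.2%) showed. Because the family was chosen from this contrast, nothing is read from that count. For the same reason nothing is read from the calls that follow. The edgeR fit without a block called none of the 5 members tested, beside 0.00566% of all genes. With the replicate number as a block, KLK6, KLK7 and KLK10 were called higher, beside 1.05% of all genes. DESeq2, the test the study used, also called these 3 higher without a block. It called 95 genes in either direction among 33857 with counts, but some of these genes received no q value. Without a block and with every gene with counts kept, edgeR called these 3 members higher as well (114 of 33857). With LSD1 KO replicate 2 left out, edgeR without a block called KLK6 alone of the members (26 of 18278).

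**Figure D1:**
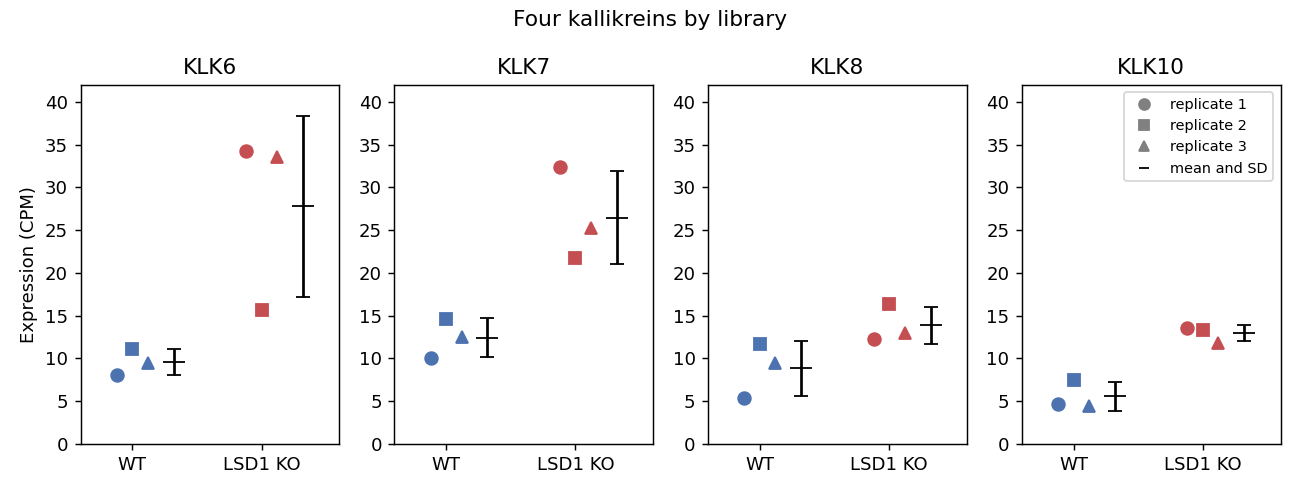
Expression in CPM (vertical axis, TMM-scaled) of KLK6, KLK7, KLK8 and KLK10 in the WT and LSD1 KO libraries (horizontal axis), where each symbol is 1 library, its shape gives the replicate number and the black bar gives the mean and SD of 3 libraries. In each panel all 3 LSD1 KO libraries lie above all 3 WT libraries, and LSD1 KO replicate 2 lies at 15.6 CPM for KLK6 while the other LSD1 KO libraries lie at 34.3 and 33.5 CPM.

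KLK6 (ENSG00000167755), a trypsin-like protease first known from the nervous system and also made by colorectal tumours, had the largest ratio of these 4 genes. It was at 8.04, 11.1 and 9.43 CPM in WT libraries 1, 2 and 3 and at 34.3, 15.6 and 33.5 CPM in LSD1 KO libraries 1, 2 and 3. LSD1 KO library 2 was low against the other LSD1 KO libraries but still above every WT library. The mean was 9.53 ± 1.54 CPM in WT cells and 27.8 ± 10.6 CPM in LSD1 KO cells (SD, n = 3), a ratio of 2.92. The log2 fold change was 1.55 ± 0.309 (SE) without a block and 1.48 ± 0.275 with the block.

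KLK7 (ENSG00000169035), the chymotrypsin-like protease that cuts corneodesmosomes in skin, had the highest mean level of the family over the 6 libraries. Its level was 10.1, 14.6 and 12.4 CPM in the WT libraries and 32.4, 21.7 and 25.3 CPM in the LSD1 KO libraries, each in the order 1, 2, 3. The groups did not overlap, and WT library 2 and LSD1 KO library 2 were again the highest and the lowest of their groups. The mean was 12.4 ± 2.28 CPM in WT cells and 26.5 ± 5.45 CPM in LSD1 KO cells (SD, n = 3), a ratio of 2.14. The log2 fold change was 1.10 ± 0.221 (SE), or 1.09 ± 0.196 with the block.

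KLK10 (ENSG00000129451), which has a trypsin-like fold and is silenced in a share of breast tumours, had the narrowest spread of the 4 abundant genes in LSD1 KO cells. Its level was 4.68, 7.49 and 4.47 CPM in WT libraries 1, 2 and 3 and 13.6, 13.3 and 11.8 CPM in LSD1 KO libraries 1, 2 and 3. The lowest LSD1 KO library stood above the highest WT library, which was WT library 2. The mean was 5.54 ± 1.69 CPM in WT cells and 12.9 ± 0.940 CPM in LSD1 KO cells (SD, n = 3), a ratio of 2.33. The log2 fold change was 1.22 ± 0.258 (SE), or 1.25 ± 0.182 with the block.

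KLK8 (ENSG00000129455), also named neuropsin, a trypsin-like protease of brain and skin, showed the smallest ratio of the 4 genes. It was at 5.36, 11.7 and 9.46 CPM in WT libraries 1, 2 and 3 and at 12.3, 16.3 and 13.01 CPM in LSD1 KO libraries 1, 2 and 3. The groups came close to each other, with WT library 2 just under LSD1 KO library 1, and LSD1 KO library 2 was the highest of its group here, unlike for KLK6 and KLK7. The mean was 8.85 ± 3.23 CPM in WT cells and 13.9 ± 2.16 CPM in LSD1 KO cells (SD, n = 3), a ratio of 1.57 and a log2 fold change of 0.65 ± 0.297 (SE), or 0.70 ± 0.178 with the block. KLK8 was not called with the block.

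Libraries with the same number deviated together from their group means, so the ratio was also taken within each number. For KLK6 it was 4.27 in replicate 1, 1.404 in replicate 2 and 3.56 in replicate 3. For KLK7 it was 3.22, 1.48 and 2.03, and for KLK10 it was 2.90, 1.78 and 2.65. In these 3 genes the lowest ratio was that of replicate 2. For KLK8 the ratio was 2.29, 1.39 and 1.37, with replicates 2 and 3 close together. Every ratio was above 1. When both replicate 2 libraries were left out, an alternative chosen after seeing the data, and the block was kept, 551 of 18043 genes were called higher (3.05%). All 5 members in that fit (KLK5, KLK6, KLK7, KLK8 and KLK10) were among them, and nothing is read from this count either, because the members were chosen from this contrast.

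**Figure D2:**
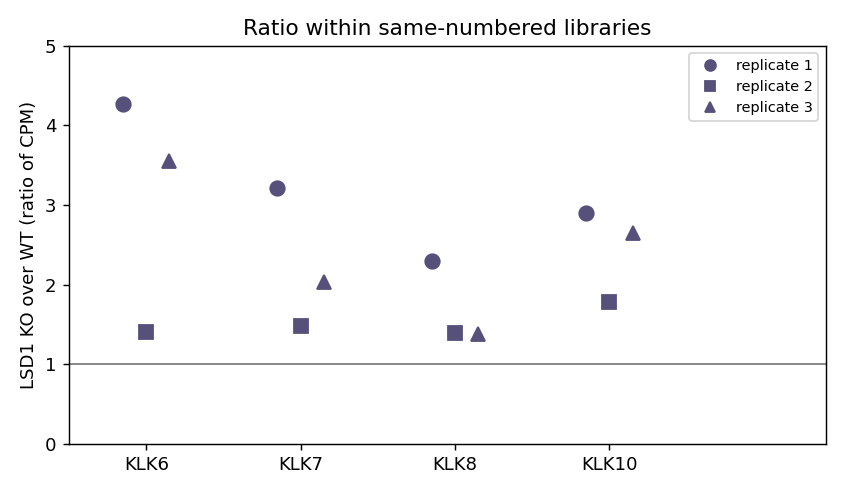
Ratio of the CPM value in LSD1 KO over that in WT (vertical axis, linear, from 0) for the libraries that share a replicate number, for KLK6, KLK7, KLK8 and KLK10 (horizontal axis), with 1 symbol for each replicate number and a line at a ratio of 1. All 12 ratios lie above the line, from 1.37 for KLK8 in replicate 3 to 4.27 for KLK6 in replicate 1.

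The remaining members were at few counts. KLK5, the trypsin-like protease placed at the start of the skin cascade, had 0, 3 and 3 counts in WT libraries 1, 2 and 3 and 11, 3 and 16 counts in LSD1 KO libraries 1, 2 and 3. LSD1 KO library 2 did not differ in count from WT libraries 2 and 3, so the groups touched. The sums were 6 and 30 counts, a ratio of 5.10 after scaling for library size, with an exact 95% interval of 2.09 to 14.97, which covers counting error only and not the spread between libraries. KLK5 failed the filter on low counts with all 6 libraries, and once the replicate 2 libraries were left out it passed through the LSD1 KO libraries alone, so its call there is no support.

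KLK11, a trypsin-like protease of prostate and brain, had 0 counts in all 3 WT libraries and 5, 2 and 6 counts in LSD1 KO libraries 1, 2 and 3. The LSD1 KO mean was 1.47 times the level that the floor of 3 counts per library would give in WT cells. That ratio allows for no counting error in the LSD1 KO counts. KLK11 failed the filter on low counts and had counts in LSD1 KO libraries alone, so no difference is read from it. LSD1 KO library 2 was itself under the floor. KLK9 had 2 counts in LSD1 KO library 3 and 0 in every other library, and KLK12 had 0 counts in all 6, so no difference was detectable for either at this depth.

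KLK13 and KLK14 did not share the direction of the 4 abundant members. KLK13, first described in breast tissue, had 17, 13 and 10 counts in WT libraries 1, 2 and 3 and 4, 18 and 2 counts in LSD1 KO libraries 1, 2 and 3. The highest value of all 6 was LSD1 KO library 2, and the 2 lowest were the other LSD1 KO libraries. Its log2 fold change was -0.72 ± 0.763 (SE), smaller than its SE. KLK13 passed the filter on low counts through WT libraries 1 and 2 and LSD1 KO library 2. Within replicate numbers the ratio for KLK13 was 0.223, 1.35 and 0.229, so replicate 2 ran against the others.

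KLK14, the trypsin-like protease that carries much of the activity in the outer skin, had 9, 17 and 8 counts in WT libraries 1, 2 and 3 and 7, 11 and 9 counts in LSD1 KO libraries 1, 2 and 3. The groups overlapped, and the ratio of the summed counts was 0.809 with an exact 95% interval of 0.470 to 1.38. For KLK13 the same ratio was 0.611 with an interval of 0.353 to 1.04. Both intervals include 1, so no difference was detectable at this depth.

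**Figure D3:**
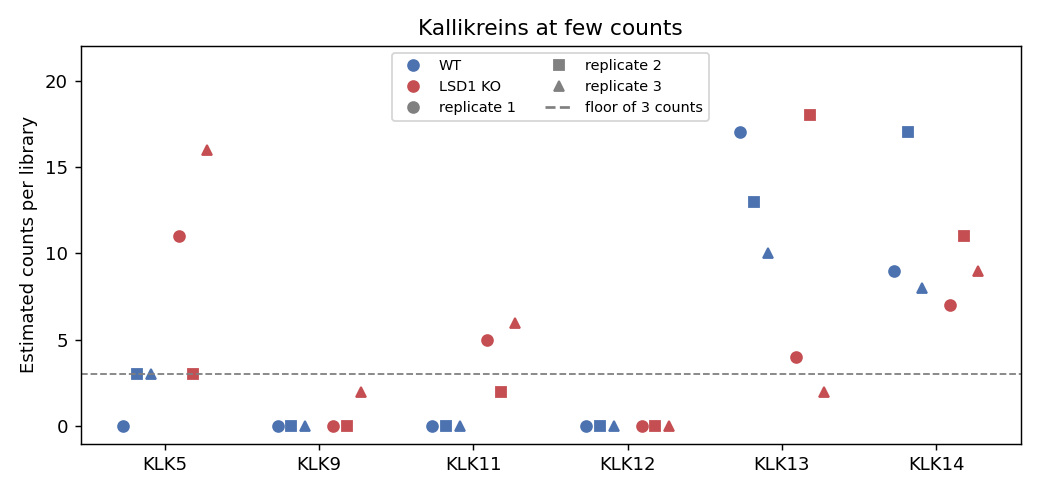
Estimated counts per library (vertical axis, not scaled for library size) of KLK5, KLK9, KLK11, KLK12, KLK13 and KLK14 (horizontal axis), with 1 symbol for each library, blue for WT and red for LSD1 KO, and a dashed line at the floor of 3 counts. No value exceeds 18 counts, KLK12 lies at 0 throughout, and for KLK13 LSD1 KO replicate 2 lies at 18 counts while the other LSD1 KO libraries lie at 4 and 2.

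To compare levels between genes, CPM was divided by the length of the canonical transcript in kilobases. In WT cells KLK8 was highest with 9.67 ± 3.53 CPM per kb, followed by KLK6 with 6.67 ± 1.08 and KLK7 with 6.33 ± 1.17 (SD, n = 3). The spreads of these 3 neighbours in the order overlapped. KLK10 followed with 1.86 ± 0.565 CPM per kb, clear of KLK7. Then came KLK14 with 0.394 ± 0.190 CPM per kb and KLK13 with 0.268 ± 0.0853, whose spreads overlapped, and KLK5 with 0.0469 ± 0.0409. In LSD1 KO cells the order of the first 3 began with KLK6 at 19.5 ± 7.41 CPM per kb, ahead of KLK8 at 15.2 ± 2.36 and KLK7 at 13.5 ± 2.79, again with overlapping spreads. KLK10 stood at 4.33 ± 0.315 CPM per kb, and KLK14, KLK5, KLK13 and KLK11 lay, in this order, between 0.315 and 0.136 CPM per kb, with spreads that overlapped between neighbours in the order.

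The make-up of the family differed between the libraries as well. KLK6 took 27.6%, 24.1% and 25.8% of the counts of the 10 members in WT libraries 1, 2 and 3 and 36.7%, 22.9% and 39.5% in LSD1 KO libraries 1, 2 and 3. LSD1 KO library 2 lay below all WT libraries in this share, and the other LSD1 KO libraries lay above them. The share of KLK7 stayed between 29.8% and 34.6% in all 6 libraries. The share of KLK8 ranged from 18.4% to 25.9% in WT cells and from 13.1% to 24.0% in LSD1 KO cells.

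Over the 6 libraries, the Pearson correlation of log2(CPM + 1) was 0.955 between KLK6 and KLK7, 0.938 between KLK7 and KLK10, 0.849 between KLK6 and KLK10 and 0.604 between KLK6 and KLK8. KLK13 correlated negatively with all 4, from -0.794 with KLK6 to -0.285 with KLK8. These values rest on 6 libraries that fall into 2 groups and share their depth and preparation, and they are given as a description. Among 14809 genes with a mean of at least 1 CPM, the pattern most like that of KLK6 was that of CD68, a lysosomal glycoprotein, with a correlation of 0.998, followed by DHRS3, a retinaldehyde reductase, with 0.995 and the kinase STK39 with 0.994. For KLK7 they were MYEOV with 0.978, ENSG00000266088 with 0.977 and WDR59, a subunit of the GATOR complex, with 0.975. CD68 was at 16.0, 19.6 and 17.8 CPM in WT libraries 1, 2 and 3 and at 32.6, 22.04 and 32.2 CPM in LSD1 KO libraries 1, 2 and 3, and it was also on the list of leukocyte markers. It made up nearly all of the summed leukocyte list, which was 16.0 to 19.6 CPM in WT and 22.2 to 32.6 CPM in LSD1 KO libraries, while CD3E and PTPRC were at or near 0 as given.

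Some reads cannot be told apart between overlapping genes, so the shared sequence was counted as the share of a gene's 31-base words found in another gene. The KLK8-KLK9 readthrough gene (ENSG00000269741) held 94.3% of the words of KLK9 and 36.4% of those of KLK8, and it had between 0 and 7 counts in each library. Adding its counts to KLK8, an alternative chosen after seeing the data, left the log2 fold change of KLK8 at 0.65. KLK6 shared 17.4% and KLK5 10.2% of their words with an antisense gene (ENSG00000269495) that had 0 to 6 counts per library. KLK10 shared 4.97% with an antisense gene at 0 counts throughout, and KLK7, KLK11 and KLK13 shared none. Whether the quantification used the strand is not given in the sources used here, so reads of a gene and its antisense partner may be mixed. A further gene on the plus strand (ENSG00000267879) lay between KLK6 and KLK7 in order and was not one of the partners named above. It had 30, 5 and 17 counts in WT libraries 1, 2 and 3 and 52, 3 and 47 counts in LSD1 KO libraries 1, 2 and 3. Replicate 2 was lowest in both groups.

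The other kallikreins of the cluster lie beyond KLK5. KLK1, tissue kallikrein, which releases kinins, was at 1.28, 2.31 and 1.85 CPM in WT libraries 1, 2 and 3 and at 3.07, 3.57 and 2.76 CPM in LSD1 KO libraries 1, 2 and 3. The groups did not overlap, but the log2 fold change of 0.79 ± 0.329 (SE) did not pass the test in edgeR without the block (q value = 0.9995) or with it (q value = 0.229). KLK4, a protease of enamel and prostate, was at 0.44 ± 0.563, within its SE. KLK2 and KLK3, the prostate kallikreins, were at 0 to 2 counts per library, and KLK15 was at 0. On the other side of KLK14, CTU1, a tRNA-modifying enzyme, was at 28.7 ± 14.3 CPM in WT and 25.7 ± 11.7 CPM in LSD1 KO cells (SD, n = 3), a log2 fold change of -0.16 ± 0.420 (SE), and SIGLEC9 and SIGLEC7 were at 0 counts.

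**Figure D4:**
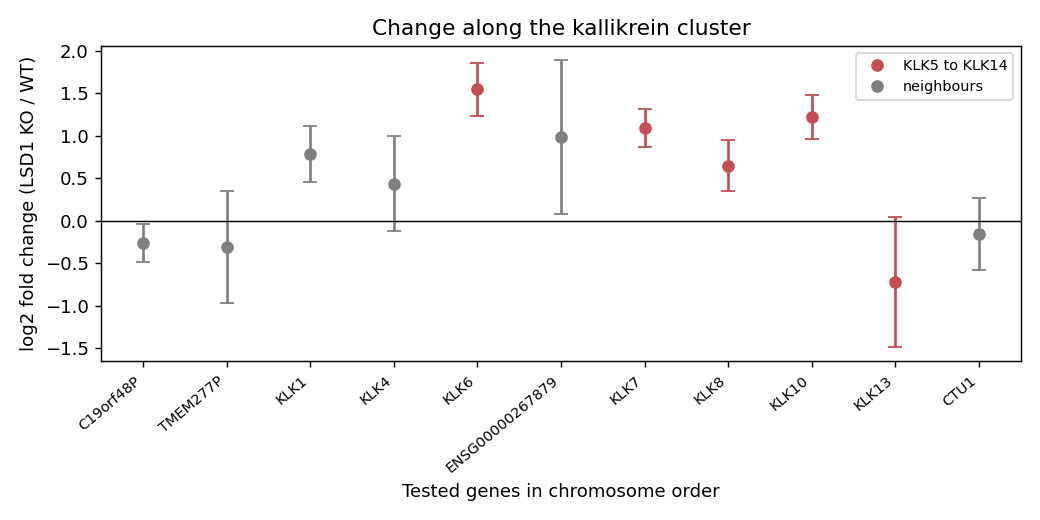
Log2 fold change of LSD1 KO over WT from the edgeR fit without a block (vertical axis, points with SE) for the tested genes of the region in their order on the chromosome (horizontal axis), with KLK6, KLK7, KLK8, KLK10 and KLK13 in red and their neighbours in grey. KLK6 is highest at 1.55, KLK7, KLK8 and KLK10 lie between 0.65 and 1.22, KLK13 lies at -0.72, and CTU1 lies at -0.16.

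Genes that act with the kallikreins were taken from 6 lists with 46 genes (other kallikreins of the cluster, activating proteases, inhibitors, receptors, substrates and hormone receptors), of which 20 were tested. No gene of the lists was called in the edgeR fit without the block. With the block, 0 were called higher, beside 1.05% of all genes, and 1 was called lower, ST14, beside 0.549% of all genes. The log2 fold change was positive for 14 of 20, with a median of 0.23, compared with 50.11% positive over all genes tested. Nothing is read from that count, because the lists were chosen with earlier results of these data known.

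ST14, which encodes matriptase, a membrane protease that activates prokallikreins in skin, fell in the fit with the block. It was at 101.4, 147.5 and 133.0 CPM in WT libraries 1, 2 and 3 and at 48.8, 48.6 and 51.1 CPM in LSD1 KO libraries 1, 2 and 3. The LSD1 KO libraries lay close together and all of them were under every WT library. The mean was 127.3 ± 23.6 CPM in WT cells and 49.5 ± 1.395 CPM in LSD1 KO cells (SD, n = 3). The log2 fold change was -1.36 ± 0.179 (SE, q value = 0.174) in edgeR without the block and -1.35 ± 0.117 (q value = 0.00462) with it. ST14 also passed in DESeq2 without a block (q value = 1.08e-06). PLAU, urokinase, which can also act on prokallikreins, had a log2 fold change of 0.03 ± 0.309 and did not pass. Of the 7 activators, 2 were tested. With the block 1 of them fell, beside 0.549% of all genes, and 0 rose, beside 1.05%. The lists were chosen with earlier results of these data known, so nothing is read from this count or from the calls of ST14. PLG, the zymogen of plasmin, had at most 4 counts per library.

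Of the 12 inhibitors, 4 were tested and none was called. SPINK5, the inhibitor lost in Netherton syndrome, and SPINK6 had 0 counts in every library. SERPINB6 was at 63.9 ± 7.90 CPM in WT and 78.1 ± 17.4 CPM in LSD1 KO cells (SD, n = 3), a log2 fold change of 0.29 ± 0.20 (SE), with overlapping groups. SERPINA1, which inhibits neutrophil elastase and several kallikreins, was at 4.63 ± 2.19 and 7.14 ± 4.22 CPM (SD, n = 3), and SERPING1, the C1 inhibitor, had a log2 fold change of -0.06 ± 0.253 (SE). SPINK7 was at 2 counts or fewer and SPINK9 at 1 to 9 counts per library.

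Of the 4 receptors that proteases can cut, 2 were tested and none was called with all 6 libraries. F2RL1, protease-activated receptor 2, which several trypsin-like kallikreins cleave, was at 207.2, 217.2 and 226.0 CPM in WT libraries 1, 2 and 3 and at 283.1, 267.3 and 297.9 CPM in LSD1 KO libraries 1, 2 and 3. Every LSD1 KO library was above every WT library, and the log2 fold change was 0.38 ± 0.151 (SE) (edgeR, q value = 0.9995 without the block, 0.105 with it). F2R, protease-activated receptor 1, had a log2 fold change of 0.39 ± 0.227 with overlapping groups (edgeR, q value = 0.137 with the block).

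Of the 11 substrates, 6 were tested and none was called. APP, the amyloid precursor protein that KLK6 can cut, was at 463.5 ± 16.3 CPM in WT and 468.1 ± 18.2 CPM in LSD1 KO cells (SD, n = 3). DSG2, the desmoglein of simple epithelia, was at 290.5 ± 69.9 and 336.3 ± 41.5 CPM, and FN1, fibronectin, at 30.2 ± 9.83 and 45.9 ± 15.8 CPM (SD, n = 3). The groups overlapped for all 3 genes. The substrates of the outer skin, DSG1, DSC1, CDSN and FLG, had at most 16 counts in any library, and CAMP, the cathelicidin precursor, had 0. NRG1, named after its values were seen, was the only tested substrate whose groups did not overlap, with a log2 fold change of 0.53 ± 0.355 (SE).

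Of the 7 nuclear receptors known to act on kallikrein genes in other tissues, 4 were tested and none was called. PGR, the progesterone receptor, had at most 1 count in any library, and ESR1, the oestrogen receptor, was at 4 to 9 counts. RARG and RARA, the retinoic acid receptors, had log2 fold changes of 0.30 ± 0.223 and 0.23 ± 0.188, and NR3C1, the glucocorticoid receptor, had 0.24 ± 0.220 (SE).

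**Figure D5:**
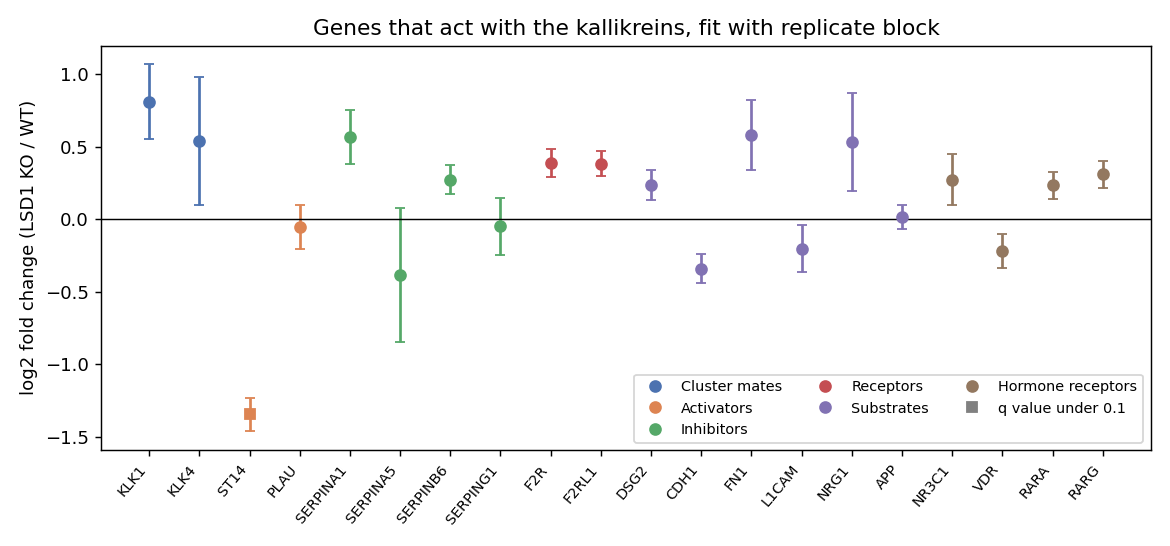
Log2 fold change of LSD1 KO over WT from the edgeR fit with the replicate block (vertical axis, points with SE) for the 20 tested genes that act with the kallikreins (horizontal axis), coloured by list, with a square for a q value under 0.1. ST14 at -1.35 is the only square, and F2RL1 and F2R lie at 0.38 and 0.39.

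Markers of other cells and of the epithelium were set beside these values. EPCAM, the epithelial cell adhesion molecule, was at 203.7 ± 39.2 CPM in WT and 104.2 ± 28.3 CPM in LSD1 KO cells (SD, n = 3), a log2 fold change of -0.97 ± 0.238 (SE) that passed in edgeR with the block (q value = 0.0788) and not without it (q value = 0.668). EPCAM also passed in DESeq2 without a block (q value = 0.0508). The other 6 tested genes of the epithelium list were not called in either edgeR fit, and their log2 fold changes without the block ran from -0.50 for KRT18 to 0.42 for KRT19, with CDX2 at -0.0054. COL1A1, a collagen chain of the fibroblast list, was at 22.7 ± 1.97 and 32.4 ± 2.04 CPM (SD, n = 3), and it passed in edgeR with the block (q value = 0.0628), while COL1A2 and DCN of the same list had at most 2 counts. The keratinocyte list summed to 16.5 to 33.5 CPM in WT and 19.7 to 31.8 CPM in LSD1 KO libraries, nearly all from KRT10, and KRT1 had 0 counts and KRT5 at most 1. Of the endothelium list, CDH5 had at most 3 counts, and PECAM1 was not analysed here. The part of these markers in the levels of KLK6, KLK7, KLK8 and KLK10 was not tested.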

How the data were processed

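RNA-seq libraries of WT and LSD1 KO HCT116 cells were analysed (3 libraries per group). Reads were checked with FastQC, trimmed with Trimmomatic 0.39 and quantified with Salmon 1.4.0 against the GENCODE transcriptome on GRCh38, per the submitters' processing notes and the study's methods. The values the authors deposited are estimated counts for each gene, in whole numbers and unscaled. How transcripts were summed and rounded is not given in the sources used here. Stable Ensembl identifiers were matched to symbols for 58395 of 60240 genes.

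Counts were compared with edgeR 4.0.16 in R 4.3.3 (TMM factors, filterByExpr by group, quasi-likelihood test, Benjamini-Hochberg q value under 0.1). The study used DESeq2 and its methods give no block, and DESeq2 1.42.0 was run as an alternative. Across 17672 genes, deviations from the group means correlated between same-numbered libraries of both genotypes with r = 0.674, 0.661 and 0.541, and between differently numbered ones with -0.640 to 0.0845, so the numbers were taken to pair the libraries and a fit with the replicate number as a block was made. Exact permutation of 3 against 3 libraries cannot give a p below 0.1. The exact 95% intervals of count ratios cover counting error only.

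The 10 members and the gene lists were chosen with earlier results of these data known. Named by rule were all members, the genes of the lists called with or without the block, the 3 genes of each list with the highest mean level, and KDM1A. CELA2A and F2RL2, at few counts, were among the 3 highest of their lists but were left out. Other genes of the lists, such as PLG, PGR, ESR1 and the SPINK genes, were named outside this rule. Other alternatives were other size factors and filters and leaving out each library. Transcript lengths, shared sequence and gene order came from GENCODE models on GRCh37, positions and promoters from RefSeq on GRCh38.p14. The fits were also run on simulated counts with a built-in replicate effect, as a check of the code only, and no outcome of that run is used here. Python 3.11.15, numpy 2.4.6, pandas 2.3.3, scipy 1.17.1 and matplotlib 3.10.9 were used for the remaining steps.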

Additional observations from a re-analysis of the deposited data

How the results depend on the processing

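The number of genes called depended on the model. It was 1 in edgeR without the block, where 552 genes had an unadjusted p under 0.05, and 282 with the replicate block, 114 with every gene with counts kept and 95 with DESeq2. Leaving out 1 library gave 1 to 26 genes, and the 26 came without LSD1 KO replicate 2. The calls among the 20 genes that act with the kallikreins went from 0 to 1 with the block, with every gene kept and with DESeq2. In alternatives chosen after seeing the data, leaving out both replicate 2 libraries gave 22 of 18043 genes called without the block and 1055 of 18043 with it. With the block these included 3 of the genes that act with the kallikreins (ST14 and L1CAM lower, F2RL1 higher). L1CAM was named after its values were seen. The cause of these shifts was not tested. Among the members, the genes of the lists and the markers named, the block changed no call other than those of KLK6, KLK7, KLK10, ST14, EPCAM and COL1A1. Log2 fold changes kept their sign in each alternative in which the gene was fitted, at 1.36 to 1.94 for KLK6, 0.92 to 1.34 for KLK7, 0.39 to 0.90 for KLK8, 1.08 to 1.49 for KLK10 and -2.12 to -0.27 for KLK13, which was not in the fits with at least 10 counts in every library or without both replicate 2 libraries. Depth limited KLK5, KLK9, KLK11, KLK12, KLK13 and KLK14, none of which exceeded 18 counts in a library.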
